A study of Mus musculus with 36 samples.

Results

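Loss of the TET enzymes was examined in mouse neural stem cells (NSCs) by comparing RNA-seq of 2 Tet triple knockout (TKO) lines with that of 3 Tet wildtype (WT) samples, across every gene of the NSC expression table. These 5 libraries were chosen by their labels, out of 36 samples in the series, and their table lists 17771 of the 19426 genes found in either of the RNA-seq tables. The labels do not say whether the WT samples are separate lines or cultures of 1 line, and they are called lines below for short. Both groups descend from male V6.5 embryonic stem cells (ESCs) of mixed 129/C57BL/6 background, were taken through the same NSC derivation and were harvested on day 6 at passage 1. The TKO lines carry knockouts of Tet1, Tet2 and Tet3 throughout derivation and culture, so the ESCs they came from already lacked the enzymes, and the exons removed are not stated in the labels. The series asks how TET enzymes act when ESCs are specified to NSCs, and 5 ESC libraries and 2 promoter capture Hi-C libraries were drawn on below for comparison.

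TET dioxygenases oxidise methylated cytosine in DNA to hydroxymethylcytosine and further products, and base excision repair or DNA replication then returns the site to unmodified cytosine. They act largely at enhancers and promoters with intermediate methylation, and they counter the DNA methyltransferases, which add the mark. NSCs grown from ESCs divide in growth factors, express the intermediate filament gene Nes and Sox transcription factors, carry regional identities along the axes of the neural tube, and can give rise to neurons, astrocytes and oligodendrocytes.

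The values are normalised counts, made by the authors by dividing reads per gene by a size factor per library. The libraries held 49060991 and 45838532 reads in TKO and 45091582, 42821602 and 46921677 reads in WT. The first principal component of the log2 values carried 64.11% of the variance and separated the genotypes. In the TKO pair, 97.6% of 13268 genes with a mean of at least 100 in the higher genotype lay within 2-fold of each other. NSC markers were present in every library but summed to less in TKO, at 181709 and 190131 normalised counts for 8 markers, against 370959, 371351 and 358731 in WT, and 7 of the 8 fell. Markers of fibroblasts and mesenchyme summed to 142118 and 120911 in TKO and to 51828, 59341 and 46846 in WT, with 6 of 7 rising. In every library most of the NSC sum was Vim and most of the mesenchymal sum was Col3a1, while the collagen Col1a1 fell (log2 -0.38). Markers of pluripotent cells summed to 4561 and 2495 in TKO and to 491, 496 and 707 in WT, with 4 of 6 rising. Epithelial markers summed to 8917 and 4573 in TKO and to 2343, 2546 and 2016 in WT, while neuronal markers, at 11785 and 10776 in TKO and 11446, 11186 and 13887 in WT, overlapped. Sox10, Afp, Mesp1, Ptprc, Aif1 and Hbb-bs, which define neural crest, endoderm, early mesoderm and blood lineages, are not among the listed genes. In bulk RNA, fewer cells of a type and less RNA per cell cannot be told apart, and the part of such cells in the results below was not tested.

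The targeted genes were still read in TKO. Tet3 (chromosome 6, 83362373 to 83457208, mm10) measured 2379 and 2597 normalised counts in TKO, against 4050, 4089 and 4208 in WT. Both TKO lines lay below every WT line, and Tet3 fell by 0.73 on the log2 scale (SE 0.07, limma adjusted p = 1.6e-05). Tet2 (chromosome 3, 133463677 to 133545136) measured 1146 and 1555 in TKO and 1276, 1295 and 1066 in WT, overlapping between genotypes (limma adjusted p = 0.459). Tet1 (chromosome 10, 62804570 to 62887469) measured 517 and 574 in TKO and 663, 717 and 901 in WT. Its log2 difference was -0.47 (SE 0.15, limma adjusted p = 0.032), and the call was lost without either TKO line or without WT line 2 or 3. Counts per gene can include reads of exons that remain, so these levels do not measure functional transcript.

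Of 17744 genes measured high enough to test, 3236 (18.2%) were higher and 3462 (19.5%) lower in TKO NSCs at an adjusted p under 0.05 (limma, Benjamini-Hochberg). Of all tested genes, 1040 (5.86%) were higher and 1240 (6.99%) lower by at least 2-fold, and 449 and 496 by at least 4-fold. Without TKO line 1 the genes at least 2-fold higher numbered 686. Changes of at least 16-fold numbered 84 higher and 80 lower. The median log2 difference over all tested genes was 0.01. Protein-coding genes were called more often than long non-coding RNAs. Of 14599 protein-coding genes 21.2% were higher and 21.8% lower, and of 1005 long non-coding RNAs 7.56% were higher and 13.7% lower. Calls also followed level, with 8.38% higher and 7.6% lower among genes averaging 10 to 100 normalised counts, and 22.4% higher and 26.5% lower among those averaging 1000 or more.

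A share of the higher calls followed chromosome 11 and the distal end of chromosome 6. Over 1301 tested genes of chromosome 11, the median log2 difference from the WT mean was 0.53 and 0.54 in the TKO libraries and 0.02, -0.01 and -0.01 in the WT libraries. Over 349 genes of chromosome 6 from position 91761452 on, near the synaptic scaffold gene Grip2, it was 0.52 and 0.53 in TKO. The TKO minus WT medians of the 19 other stretches lay between -0.07 and 0.01. On chromosome 11, 774 genes (59.5%) were higher and 79 lower, and on distal 6, 188 genes (53.9%) were higher and 32 lower, so that these stretches held 23.9% and 5.81% of all higher calls. Over the 14737 genes placed elsewhere, 15.2% were higher and 21.9% lower. The same stretches were raised in TKO ESCs, at 0.26 and 0.53 on chromosome 11 and 0.54 and 0.48 on distal 6. The copy number of these stretches was not tested. With each library shifted to its chromosome medians, 2698 of 16387 genes (16.5%) were higher and 3316 (20.2%) lower. Of 6543 called genes with a position, 5577 kept their call and direction under that shift, while 708 higher genes were no longer called higher. Of these, 56 on chromosome 11 and 7 on distal 6 were called lower instead. Every gene said below to rise or fall passed limma's test at an adjusted p under 0.05. The value with chromosomes centred is given for most of those on chromosome 11 or distal 6, though not for Wnt3a, Krt15 or Grb10. Most named rises and falls were chosen in part because their genotypes did not overlap. Statements below that the lines lay apart therefore follow from the choice. Of all tested genes, 59.9% had genotypes that did not overlap.

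**Figure D1:**
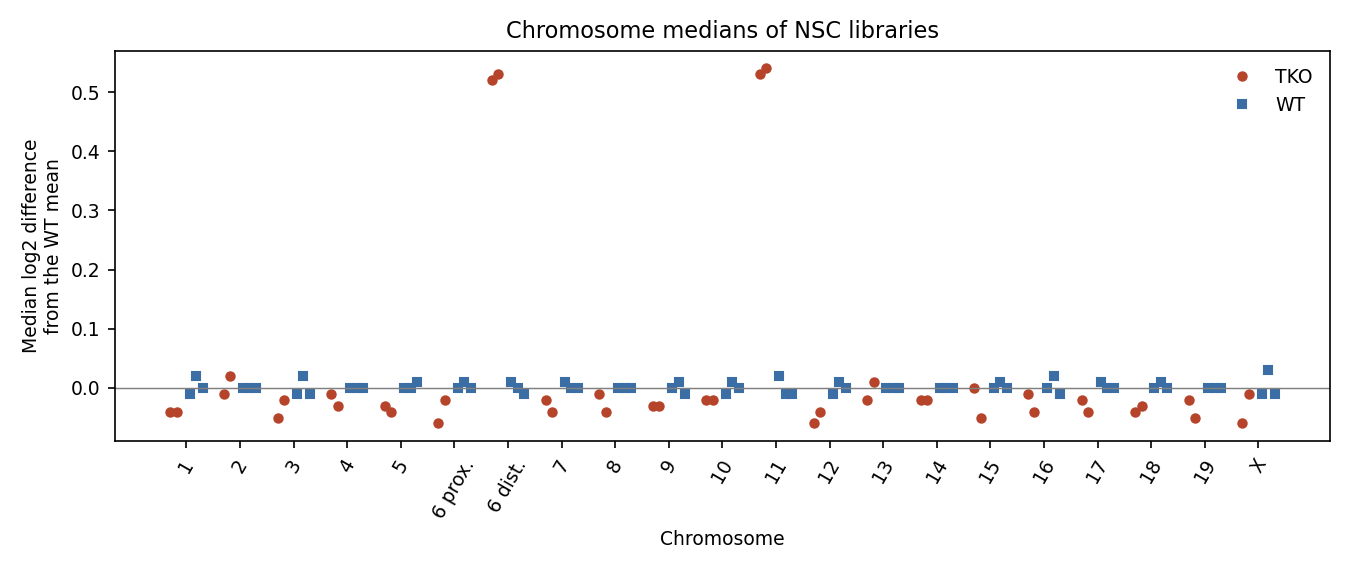
Median log2 difference from the WT mean over the tested genes of each chromosome, with chromosome 6 in its proximal and distal stretches; each point is 1 library, the 2 TKO libraries drawn left of the 3 WT libraries. Chromosome 11 and distal 6 stand at 0.52 to 0.54 in both TKO libraries, and all other TKO points lie near 0.

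The 12 largest rises among well-expressed genes included those of Strc, Dmp1, Lama2, Six2 and H19, and the 12 largest falls those of Mlc1, Dmrt3, Bmp6, Msx1 and Ptgds. The promoters of 4 of these 24 genes are shown because they span the range of CpG density, the substrate of DNA methylation, on either side. Six2 and Lama2 have the most and the fewest CpG dinucleotides among the 12 largest rises that have a promoter sequence, and Msx1 and Ptgds among the 12 largest falls. Each sequence runs from 250 bases before to 50 bases after the annotated start (RefSeq, GRCm38.p6), in the direction of transcription, with every CpG in capitals.
Six2: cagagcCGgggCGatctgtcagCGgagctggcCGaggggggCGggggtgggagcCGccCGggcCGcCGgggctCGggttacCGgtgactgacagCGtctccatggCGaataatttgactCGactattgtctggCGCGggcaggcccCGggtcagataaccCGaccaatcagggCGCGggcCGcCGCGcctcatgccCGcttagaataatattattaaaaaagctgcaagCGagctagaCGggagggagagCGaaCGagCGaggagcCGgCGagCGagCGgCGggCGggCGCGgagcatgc
Lama2: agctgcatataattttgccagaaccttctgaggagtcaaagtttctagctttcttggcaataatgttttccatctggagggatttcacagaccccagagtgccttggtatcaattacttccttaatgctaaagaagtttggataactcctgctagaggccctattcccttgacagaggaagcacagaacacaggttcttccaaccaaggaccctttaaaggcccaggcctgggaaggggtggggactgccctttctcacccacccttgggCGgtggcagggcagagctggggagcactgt
Msx1: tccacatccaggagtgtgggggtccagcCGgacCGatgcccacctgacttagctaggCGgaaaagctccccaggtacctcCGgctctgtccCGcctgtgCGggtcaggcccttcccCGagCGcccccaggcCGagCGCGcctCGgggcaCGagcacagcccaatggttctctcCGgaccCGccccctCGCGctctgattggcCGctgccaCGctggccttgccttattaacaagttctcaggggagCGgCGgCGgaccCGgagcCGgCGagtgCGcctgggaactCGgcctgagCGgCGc
Ptgds: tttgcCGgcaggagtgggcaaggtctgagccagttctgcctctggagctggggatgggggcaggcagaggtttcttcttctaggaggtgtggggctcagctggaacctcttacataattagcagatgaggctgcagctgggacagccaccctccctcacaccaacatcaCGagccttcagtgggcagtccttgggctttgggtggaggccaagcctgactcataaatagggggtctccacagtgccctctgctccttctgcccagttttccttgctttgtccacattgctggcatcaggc
The Six2 promoter (chr17:85688205-85688504, minus strand) held 37 CpG, a number reached by 10.1% of 12367 promoters of tested genes. The Lama2 promoter (chr10:27616893-27617192, minus strand) held 1, and 2.13% of promoters held as few. The Msx1 promoter (chr5:37824536-37824835, minus strand) held 29 CpG, a number reached by 24.2% of promoters, and the Ptgds promoter (chr2:25469700-25469999, minus strand) held 2, with 4.33% holding as few. CpG-rich and CpG-poor promoters thus stood among the largest changes in both directions. The methylation of these promoters was not analysed here.

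Six2, a homeobox factor that maintains kidney progenitors, measured 4475 and 2013 normalised counts in TKO, against 256, 254 and 223 in WT. Lama2, the laminin alpha chain of muscle and nerve basement membranes, measured 783 and 762 in TKO and 41.3, 14.1 and 54.4 in WT. Both genes were higher in each TKO line than in any WT line, by 3.61 (SE 0.26) and 4.56 (SE 0.47) on the log2 scale, with limma adjusted p of 1.39e-06 and 2.03e-05. Msx1, a homeobox target of BMP signals in the dorsal neural tube, measured 31.2 and 39 in TKO, against 1076, 1232 and 907 in WT. Ptgds, which makes prostaglandin D in the meninges and glia, measured 5.51 and 7.81 in TKO and 582, 509 and 445 in WT. Both were near the bottom of the scale in TKO alone, and fell by 4.89 (SE 0.21) and 6.07 (SE 0.32), with limma adjusted p of 3.84e-08 and 1.57e-07.

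Other rises of this size were those of Clca3a1, of a family that regulates chloride channels (5.45, SE 0.42), Dmp1, a matrix protein of bone and dentin (4.70, SE 0.38), Meox2, a homeobox factor of somites (4.04, SE 0.46), Crym, a thyroid hormone binding protein (4.02, SE 0.33) and Ebf2, a helix-loop-helix factor of neurons and fat (4.01, SE 0.23). The inner ear gene Strc, which encodes stereocilin, measured 3933 and 4233 normalised counts in TKO, against 3.1, 0 and 0 in WT. Both TKO lines were high and a total of 3 reads came from WT, so the ratio of about 3950 has an exact 95% interval on read pairs from 824 to 24600, for counting error only. Mitf, Trim25 and Ngfr lie on distal 6 or chromosome 11. Mitf, a master factor of melanocytes and of retinal pigment epithelium, rose by 3.84 and Trim25, an antiviral ubiquitin ligase, by 3.78, and with chromosomes centred they stood at 3.31 and 3.24. Ngfr, the low-affinity neurotrophin receptor, rose by 3.60, or 3.06 with chromosomes centred.

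Among the falls, Mlc1, a membrane protein of astrocyte end feet, measured 42.2 and 23.4 normalised counts in TKO and 3348, 3168 and 3240 in WT. Bmp6, a BMP ligand, measured 76.2 and 60.5 in TKO and 2762, 2169 and 2349 in WT. For both genes the WT lines sat close together and far above the TKO lines (log2 differences -6.64 and -5.13). Dmrt3, a factor of the dorsal telencephalon, measured 71.6 and 29.3 in TKO and 1626, 1473 and 1404 in WT. The folate receptor gene Folr1 changed by -4.93 (SE 0.19), the lipid droplet gene Pnpla3 by -5.30 (SE 0.29) and the brain metallothionein Mt3 by -4.60 (SE 0.13). Fam181a measured 5.51 and 49.8 in TKO and 737, 648 and 972 in WT. Its TKO lines differed by more than those of the other falls but stayed below every WT line.

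By level rather than fold, some of the most abundant transcripts shifted. Col3a1, a fibrillar collagen of connective tissue, measured 97558 and 83682 normalised counts in TKO, against 27187, 30033 and 24257 in WT (log2 1.74, SE 0.09). Igfbp2, a binding protein of insulin-like growth factors made by radial glia, measured 23687 and 33889 in TKO and 202297, 209353 and 171183 in WT (-2.77, SE 0.13). Acta2, smooth muscle actin, measured 10756 and 6753 in TKO, against 82198, 104367 and 77747 in WT (-3.36, SE 0.17). In none of these genes did the genotypes overlap. Peg10, an imprinted gene derived from a retrotransposon, rose by 1.30 (SE 0.06), while brain creatine kinase Ckb fell by 1.51 (SE 0.18), the intermediate filament Vim by 0.87 (SE 0.06) and cytoplasmic actin Actb by 0.41 (SE 0.07). Igfbp3, on chromosome 11, rose by 1.23, or 0.69 with chromosomes centred.

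**Figure D2:**
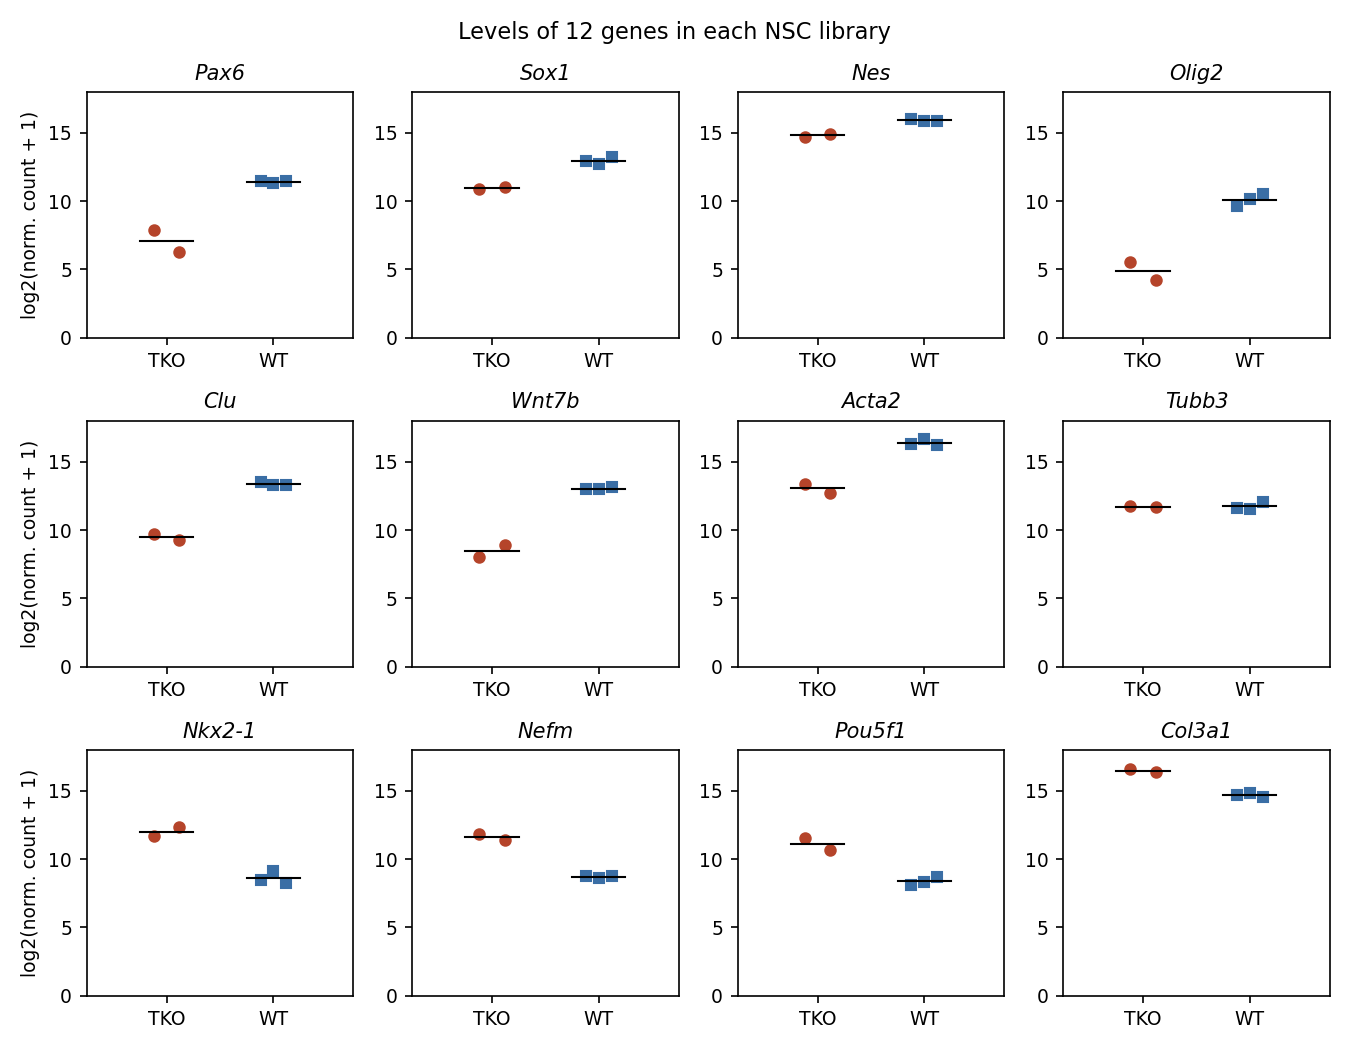
Normalised counts of 12 genes in each library on a log2(value + 1) axis, with the 2 TKO lines drawn left of the 3 WT lines; each point is 1 line and the bars are group means. Pax6, Sox1, Nes, Olig2, Clu, Wnt7b and Acta2 are lower in both TKO lines than in any WT line, Nkx2-1, Nefm, Pou5f1 and Col3a1 are higher, and Tubb3 overlaps.

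Gene lists of pathways and cell types are described below by how many members passed the same test, to be read against the 18.2% higher and 19.5% lower of all tested genes and their median of 0.01. Members that were too low were not measured, and a member may have reached the level filter through the group where it is high. Of 29 genes of neural stem cells and radial glia, all measured, 22 fell and 4 rose, with a median log2 difference of -1.02. Nr2e1, a nuclear receptor that keeps NSCs dividing, measured 150 and 105 normalised counts in TKO, against 581, 538 and 799 in WT. Ednrb, the endothelin receptor of radial glia and melanoblasts, measured 193 and 351 in TKO and 1019, 1300 and 1354 in WT. Both fell (log2 -2.32, SE 0.23 and -2.22, SE 0.22), with no overlap between genotypes. Pax6, which specifies dorsal forebrain progenitors, measured 234 and 78.1 in TKO and 2825, 2575 and 2840 in WT, and Sox1 1892 and 2080 in TKO and 7919, 6912 and 9469 in WT (-4.33, SE 0.33 and -2.02, SE 0.11). Pou3f4, a POU factor of neural progenitors and the inner ear, went the other way, with 709 and 1474 in TKO against 262, 292 and 403 in WT (1.70, SE 0.28), as did Hmga2, a chromatin protein of young stem cells (0.88, SE 0.10). Hes5, a Notch effector, measured 458 and 476 in TKO and 202, 237 and 524 in WT, and overlapped. These changes stood beside the lower NSC marker sums and higher mesenchymal and pluripotent sums given above.

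Astroglial genes were mostly lower. Of 28 measured out of 30, 18 fell and 2 rose (median -0.86). Clu, the apolipoprotein clusterin, measured 830 and 613 normalised counts in TKO, against 11916, 10365 and 10056 in WT (-3.91, SE 0.12). Bcan, the proteoglycan brevican, measured 72.6 and 105 in TKO and 763, 500 and 1111 in WT (-3.09, SE 0.30). Both genotypes were clearly apart in these genes. The glutamate transporter Slc1a2 fell by 1.41 (SE 0.22) and the aldolase Aldoc, on chromosome 11, by 1.29, or 1.83 with chromosomes centred. The gap junction gene Gja1 gave 11329 and 12878 in TKO and 12629, 12857 and 11080 in WT (limma adjusted p = 0.937), and the water channel Aqp4 was low in all lines. Of 18 measured oligodendroglial genes, 5 fell and 3 rose, and 3 fell without TKO line 1 or without WT line 2 or 3. Olig2, a basic helix-loop-helix factor of oligodendrocyte and motor neuron precursors, measured 45.9 and 17.6 in TKO, against 814, 1115 and 1464 in WT, and its neighbour Olig1 measured 202 and 158 in TKO and 918, 1126 and 1477 in WT. Both fell, by 5.22 (SE 0.36) and 2.68 (SE 0.20), while Myrf, which drives myelin genes, rose by 2.13 (SE 0.24). The myelin gene Mog and the precursor receptor Pdgfra did not pass.

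Cilia genes also leaned downwards, with 14 of 30 measured genes falling and 2 rising (median -0.59). With chromosomes centred 15 fell and 0 rose by limma (0 at an unadjusted p under 0.05; 2 by edgeR and 2 by DESeq2 without centring). Foxj1, the master factor of motile cilia, lies on chromosome 11 and measured 599 and 536 normalised counts in TKO, against 2344, 2509 and 2649 in WT. It fell by 2.14 (SE 0.10), or 2.68 with chromosomes centred. Cfap44, a flagellar axoneme protein, measured 18.4 and 11.7 in TKO and 117, 113 and 130 in WT (-2.94, SE 0.41). Each TKO line was below each WT line in both genes.

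Forebrain patterning genes changed in either direction. Of 23 measured forebrain patterning genes, 13 fell and 6 rose (median -0.82). Otx1, a factor of anterior brain, lies on chromosome 11 and measured 360 and 253 normalised counts in TKO and 3043, 2493 and 2803 in WT, and fell by 3.20 (SE 0.15), or 3.73 with chromosomes centred. Fezf1, a zinc finger factor of the rostral forebrain, measured 310 and 374 in TKO and 4082, 4479 and 4268 in WT (-3.65, SE 0.10). WT lines were uniformly high and TKO lines uniformly low in both. Barhl2, a homeobox factor of the diencephalon and retina, fell by 4.07 (SE 0.27) and Otx2 by 1.55 (SE 0.07).

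The 6 rises included genes known from the ventral telencephalon and hypothalamus. Nkx2-1, which specifies the medial ganglionic eminence and hypothalamus, measured 3249 and 5263 normalised counts in TKO, against 347, 563 and 305 in WT (3.40, SE 0.25, limma adjusted p = 1.58e-06). Dlx2, a homeobox factor of inhibitory neuron precursors, measured 1021 and 1269 in TKO and 159, 234 and 408 in WT, and its neighbour Dlx1 1723 and 1830 in TKO and 281, 482 and 729 in WT (2.20, SE 0.31 and 1.94, SE 0.29). In each case both TKO lines exceeded all WT lines. Six3, of the most anterior forebrain, measured 4462 and 6227 in TKO and 4728, 5531 and 5332 in WT, and did not pass. A fit of all 10 RNA-seq libraries together leaves out the 13 measured forebrain genes that are listed only for NSCs. In it 4 forebrain genes fell and 3 rose.

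Of 28 measured dorsoventral and Hedgehog genes, 17 fell and 1 rose (median -0.90), with the ventral gene Olig2, given above, among the falls. Of the zinc finger factors of the dorsal neural tube, Zic2 measured 2064 and 1762 normalised counts in TKO and 8406, 7759 and 9042 in WT, Zic4 650 and 434 in TKO and 5318, 4414 and 5803 in WT, and Zic5 395 and 325 in TKO and 3303, 3241 and 3207 in WT. They fell by 2.14 (SE 0.09), 3.27 (SE 0.16) and 3.18 (SE 0.11), with no overlap. The Hedgehog receptor gene Ptch1, a target of its own pathway, measured 5763 and 7608 in TKO and 7239, 7793 and 8574 in WT, and the floor plate factor Foxa2 972 and 1896 in TKO and 894, 1174 and 1150 in WT. Neither passed. The ventral progenitor gene Nkx6-1 was the 1 that rose (1.02, SE 0.22), a call lost without TKO line 2 (0.61, limma adjusted p = 0.0704). Without TKO line 1, 3 members rose.

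More posterior genes rose in part. Of 29 measured midbrain, hindbrain and spinal genes out of 36, 13 rose and 5 fell (median 1.19), or 10 and 4 with chromosomes centred. The rises depended on single lines, with 8 without TKO line 1, 6 without TKO line 2 and 8 without WT line 2, and 3 falls remained in number without TKO line 1, WT line 2 or WT line 3. Hoxb4, of the hindbrain and cervical cord, lies on chromosome 11 and measured 248 and 135 normalised counts in TKO, against 16.5, 15.2 and 33 in WT (3.11, SE 0.49, and 2.57 with chromosomes centred). Irx3, an Iroquois factor of the posterior neural plate, measured 863 and 709 in TKO and 296, 273 and 200 in WT (1.63, SE 0.20). Pax2, which marks the midbrain-hindbrain boundary, measured 153 and 152 in TKO and 1677, 1582 and 1337 in WT (-3.31, SE 0.14). The lines of each genotype lay apart in these genes.

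Genes of neuronal commitment split. Of 26 measured proneural and neurogenic genes, 7 rose and 4 fell, and without TKO line 2 the rises came to 4. Neurog2, the proneural factor of glutamatergic neurons, measured 14.7 and 5.85 normalised counts in TKO and 513, 388 and 577 in WT. Tbr1, of cortical neurons, measured 36.7 and 19.5 in TKO and 328, 278 and 352 in WT (-3.52, SE 0.33). Both were far lower in TKO, whereas Ebf1, on chromosome 11, measured 2243 and 1627 in TKO and 209, 268 and 216 in WT, rising by 3.05 (SE 0.18), or 2.51 with chromosomes centred. Isl1, a LIM homeobox factor of motor and sensory neurons, measured 518 and 429 in TKO and 73.4, 107 and 185 in WT (2.05, SE 0.34). The Notch ligand Dll1 did not pass.

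Of 30 neuronal genes, all measured, 10 rose and 8 fell, with a median of 0.08, and 5 fell without TKO line 1 or WT line 3. In a fit of all 10 RNA-seq libraries, which leaves out 2 members listed only for NSCs, 3 fell. Among the rises were neurofilament genes. Nefm measured 3628 and 2717 normalised counts in TKO, against 438, 385 and 445 in WT, and Nefl 2908 and 1578 in TKO and 308, 303 and 319 in WT. They rose by 2.89 (SE 0.14) and 2.79 (SE 0.21), and Nefh, on chromosome 11, by 3.52, or 2.98 with chromosomes centred. The vesicular glutamate transporter Slc17a6 fell by 1.81 (SE 0.34), the adhesion molecule Cntn2 by 1.77 (SE 0.30) and the neural cell adhesion molecule Ncam1 by 1.28 (SE 0.09). Tubb3, the neuronal tubulin, measured 3521 and 3290 in TKO and 3208, 3021 and 4231 in WT, and Dcx, of migrating neurons, 1062 and 1073 in TKO and 886, 918 and 1098 in WT. Both overlapped between genotypes.

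Wnt signalling genes changed at the level of ligands, receptors and targets. Of 31 measured Wnt ligands and receptors, 11 rose and 10 fell. Wnt8b, a ligand of the cortical hem, measured 31.2 and 55.6 normalised counts in TKO and 5949, 4578 and 5067 in WT, and Wnt3a, another hem ligand on chromosome 11, 1.84 and 0 in TKO and 105, 26 and 60.2 in WT. Both were far lower in TKO, where Wnt3a was nearly unread and rests on 2 reads. Wnt7b, a ligand of the developing cortex, measured 255 and 480 in TKO and 8089, 8211 and 8974 in WT (-4.58, SE 0.19). Wnt6, an ectodermal ligand, measured 295 and 392 in TKO and 99.2, 84.4 and 119 in WT (1.76, SE 0.27), and Wnt8a, a ligand of the primitive streak, 152 and 91.7 in TKO and 7.23, 15.2 and 17.5 in WT (3.14, SE 0.57). Among the Frizzled receptors, Fzd9 fell by 2.98 (SE 0.14) and Fzd4 and Fzd5 rose by 1.94 (SE 0.21) and 1.75 (SE 0.20). Of 28 measured Wnt targets and modulators, 17 fell and 6 rose (median -1.03). The secreted Wnt inhibitor Notum, on chromosome 11, measured 43.2 and 28.3 in TKO and 529, 613 and 454 in WT, and fell by 3.88, or 4.42 with chromosomes centred. The agonists Rspo2 and Rspo3 measured 314 and 343, and 364 and 363, in TKO, against 3449, 3228 and 3207, and 5261, 3779 and 3937, in WT (-3.32, SE 0.10 and -3.55, SE 0.13). Cyclin D1, Ccnd1, measured 5219 and 5226 in TKO and 22774, 26328 and 24289 in WT (-2.23, SE 0.07), while the inhibitor Dkk1 rose by 3.79 (SE 0.63). Beta-catenin, Ctnnb1, measured 44154 and 46275 in TKO and 46437, 48440 and 49266 in WT and did not pass.

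In the FGF pathway 11 of 35 measured genes rose and 11 fell. Of ligands known from the rostral and midbrain signalling centres, Fgf15 measured 866 and 360 normalised counts in TKO against 4159, 3273 and 6130 in WT, and Fgf17 measured 68.9 and 31.2 in TKO against 593, 392 and 530 in WT. Their log2 differences were -2.97 (SE 0.31) and -3.39 (SE 0.33). Fgf18, on chromosome 11, fell by 2.40 (-2.94 with chromosomes centred), and the receptor Fgfr4 fell by 2.71 (SE 0.37). Fgf10, a mesenchymal ligand, rose by 2.12 (SE 0.36) and the ERK phosphatase Dusp4 by 1.47 (SE 0.10). The feedback inhibitor Spry2 and the ERK target Etv5 did not pass. Of 30 measured BMP genes, 8 rose and 9 fell, and the rises came to 5 without either TKO line and to 4 without WT line 1 or 3. Bmp7 measured 1354 and 2006 in TKO and 6006, 6032 and 5188 in WT (-1.80, SE 0.14), and Id4, a BMP-induced inhibitor of differentiation, fell by 1.16 (SE 0.12), while Bmp5 and the antagonist Grem1 rose by 1.80 (SE 0.33) and 2.05 (SE 0.38). Bmp4 measured 2880 and 2272 in TKO and 2849, 3416 and 2129 in WT, and did not pass.

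Notch genes were balanced, 9 of 28 rising and 9 falling, or 5 falling without TKO line 1 or WT line 3. The receptor Notch2 measured 3920 and 4545 normalised counts in TKO and 10037, 9138 and 9503 in WT (-1.18, SE 0.08), and the effector Hey1 measured 1341 and 1658 in TKO and 734, 837 and 843 in WT (0.89, SE 0.12). The genotypes were apart in both, while Notch1 and the transcription factor Rbpj did not pass. Of 16 measured Nodal genes, 8 rose and 1 fell (median 1.13), and 2 rose without TKO line 1. Gdf3, a Nodal-related ligand on distal 6, measured 209 and 76.1 in TKO, against 4.13, 0 and 1.94 in WT, and rose by 5.69, or 5.16 with chromosomes centred. Its WT total was 6 reads, and the ratio of 70.5 has an exact 95% counting interval from 23.7 to 346 on read pairs. The receptor-activated Smad3 fell by 0.54 (SE 0.08).

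Retinoic acid genes leaned upwards, with 11 of 17 measured rising and 3 falling (median 1.38). The synthetic enzyme Aldh1a3 measured 2038 and 1713 normalised counts in TKO and 466, 230 and 442 in WT (2.37, SE 0.25), and the degrading enzyme Cyp26a1 447 and 255 in TKO and 33.1, 34.6 and 36.9 in WT (3.24, SE 0.35). Both were higher in each TKO line than in any WT line, and Crabp2, a binding protein and direct target, rose by 2.08 (SE 0.33), or 1.33 without TKO line 1. The retinol dehydrogenase Rdh10 fell by 0.95 (SE 0.09). Of 16 genes of the insulin-like growth factor axis, 7 rose and 6 fell. Igf2 measured 2841 and 2449 in TKO and 644, 933 and 1093 in WT (1.60, SE 0.18), and the RNA-binding protein Igf2bp1, on chromosome 11, rose by 1.32, or 0.79 with chromosomes centred. Igfbpl1 measured 1952 and 1768 in TKO, against 18455, 12796 and 19697 in WT (-3.17, SE 0.15), and the docking protein Irs2 fell by 1.14 (SE 0.08).

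Pluripotency genes were higher in TKO NSCs. Of 27 measured genes, 16 rose and 2 fell (median 2.10). Pou5f1, the core pluripotency factor, measured 3044 and 1650 normalised counts in TKO, against 280, 320 and 422 in WT (2.74, SE 0.24, limma adjusted p = 5.68e-06). Lin28a, an RNA-binding protein that blocks let-7, measured 2490 and 1495 in TKO and 217, 201 and 159 in WT (3.33, SE 0.22), and Utf1 700 and 443 in TKO and 41.3, 49.8 and 60.2 in WT (3.45, SE 0.31). TKO line 1 was the higher of the pair each time, and both lines exceeded WT. Dppa2, which sits at ESC-specific loci, had no read in WT and its TKO level was at least 21.7-fold higher against a floor of 3 read pairs over the WT libraries. The naive factors Esrrb and Klf4 did not pass, with 109 and 58.5 for Esrrb in TKO and 59.9, 52 and 93.2 in WT. Of 19 genes of primed epiblast, 10 rose, or 6 without TKO line 1, and 6 fell, with a median of 0.59, or 0.30 with chromosomes centred. T, the brachyury factor of the primitive streak, measured 3169 and 2557 in TKO and 626, 729 and 644 in WT (2.10, SE 0.12), while carbonic anhydrase Car14 fell by 1.65 (SE 0.19).

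Of 41 germline genes known to be held silent by promoter methylation in somatic cells, 17 were measured, of which 9 rose and 2 fell (median 3.16). The testis cytochrome Cyct measured 190 and 193 normalised counts in TKO, against 8.27, 0 and 0 in WT. The X-linked antigens Trap1a and Fmr1nb measured 196 and 183, and 366 and 330, in TKO, against 10.3, 0 and 7.77, and 2.07, 10.8 and 21.4, in WT. They rose by 6.52 (SE 1.03), 5.36 (SE 0.96) and 5.22 (SE 0.72), and the deubiquitinase Usp26, with no read in WT, was at least 24.6-fold higher. These genes were nearly unread in WT and similar in the TKO lines, and they reached the level filter through TKO alone. Members low in both genotypes were not measured, so the counts and the median describe only the measured part of the list. Dmrtb1, of the switch to meiosis, and Tsga10, a sperm tail protein, fell by 1.78 (SE 0.18) and 1.25 (SE 0.17).

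Of 48 measured imprinted genes, 26 rose and 9 fell (median 0.53). H19, the maternal non-coding RNA beside Igf2, measured 34432 and 14479 normalised counts in TKO, against 546, 580 and 313 in WT (5.59, SE 0.32). Magel2, of the Prader-Willi region, measured 2402 and 3546 in TKO and 386, 431 and 612 in WT (2.64, SE 0.20), Dlk1, a Notch-related ligand, 5092 and 4803 in TKO and 1923, 2410 and 2018 in WT (1.23, SE 0.10), and the amino acid transporter Slc38a4 6255 and 6604 in TKO and 3837, 3934 and 3261 in WT (0.81, SE 0.09). All were above WT in both lines. Zim1 and the non-coding Peg13 fell by 2.10 (SE 0.22) and 1.94 (SE 0.23), and Rasgrf1 by 1.84 (SE 0.45). Cdkn1c, Kcnq1ot1 and Snrpn did not pass, with 4461 and 4197 for Snrpn in TKO and 4014, 4365 and 4115 in WT. Allele of origin was not analysed here.

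In the DNA methylation machinery, the de novo methyltransferase Dnmt3b measured 3515 and 2113 normalised counts in TKO, against 485, 491 and 635 in WT (2.35, SE 0.19), and its cofactor Dnmt3l 154 and 111 in TKO and 6.2, 6.5 and 3.89 in WT (4.36, SE 0.61). Dnmt3a rose by 0.45 (SE 0.07), the chromatin remodeller Hells fell by 0.40 (SE 0.08), and the maintenance cofactor Uhrf1 measured 9559 and 9886 in TKO and 10896, 10317 and 11306 in WT and did not pass. Of 19 measured genes of methyltransferases and readers, 5 rose and 4 fell, and the falls came to 1 without either TKO line, without WT line 1 or 3, with equal library totals and with chromosomes centred. Of 22 measured TET and base excision repair genes, 8 rose and 5 fell, with 4 rises without TKO line 1 and 5 without TKO line 2, WT line 1, WT line 3 or with chromosomes centred. The glycosylase Tdg, which removes oxidised cytosine, measured 3885 and 4013 in TKO and 3533, 3509 and 3934 in WT and did not pass. Gadd45g and Gadd45b, stress proteins linked to demethylation, fell by 1.61 (SE 0.07) and 1.05 (SE 0.15), and the glycosylase Neil3 by 0.87 (SE 0.12). Of 30 measured Polycomb and Trithorax genes 10 rose and 5 fell, but with chromosomes centred 6 rose and 7 fell, and without TKO line 2, 3 fell. The methyltransferase Ezh2 measured 5795 and 5973 in TKO and 9173, 8565 and 9033 in WT (-0.60, SE 0.06), its paralog Ezh1, on chromosome 11, rose by 1.04, or 0.51 with chromosomes centred, and the accessory Phf19 fell by 2.07 (SE 0.11).

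Genes of other embryonic lineages were read at higher levels in part. Of 23 measured mesoderm genes out of 28, 12 rose and 1 fell (median 1.29), but without TKO line 1, 5 rose and 4 fell. Meox1, a somite homeobox factor on chromosome 11, measured 498 and 334 normalised counts in TKO, against 22.7, 26 and 15.5 in WT (4.22, SE 0.39, and 3.68 with chromosomes centred), while the endothelial and mesodermal receptor Kdr measured 259 and 424 in TKO and 2147, 1800 and 1766 in WT (-2.51, SE 0.18). Mesodermal markers summed to 3317 and 2628 in TKO and 685, 772 and 732 in WT. Nearly all of this sum was T, and the other listed markers, Mixl1 and Tbx6, did not pass. Of 23 measured neural crest genes, 11 rose and 5 fell, with a median of 0.82, or 0.29 with chromosomes centred, where 4 members lie on the raised stretches. Among them were Twist2, a mesenchymal factor, with 251 and 202 in TKO and 37.2, 63.9 and 39.8 in WT (2.28, SE 0.36), and Tfap2c, which fell by 1.85 (SE 0.25). Neural crest markers summed to 2447 and 982 in TKO and 754, 826 and 805 in WT, with Sox10 not listed. Of 18 measured endoderm genes 5 rose and 7 fell, or 4 falling without TKO line 1. The endocytic receptor Lrp2, also of neuroepithelium, measured 2132 and 2431 in TKO and 13904, 13624 and 13053 in WT (-2.57, SE 0.07), and the X-linked homeobox gene Rhox5 rose by 3.52 (SE 0.40). Endoderm markers summed to 419 and 234 in TKO and 99.2, 141 and 81.6 in WT. Of these markers Gata6 rose by 3.01, or 2.40 without TKO line 1, while Sox17 and Gata4 did not pass. The Gata6 call was lost with limma without the trend (adjusted p = 0.0579).

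Of 31 measured epithelial and trophoblast genes, 15 rose and 2 fell (median 0.90), or 6 rising without TKO line 1 and 9 without WT line 1. E-cadherin, Cdh1, measured 4667 and 1852 normalised counts in TKO, against 305, 369 and 355 in WT (3.10, SE 0.29), and the basal keratin Krt15, on chromosome 11, 314 and 64.4 in TKO and 2.07, 0 and 1.94 in WT. The ratio of 142 for Krt15 rests on 4 reads in WT and has an exact 95% counting interval from 38.5 to 1170 on read pairs. TKO line 1 was the higher of the pair in both. The tight junction gene Cldn3 fell, with 40.4 and 27.3 in TKO and 587, 446 and 462 in WT (-3.86, SE 0.27), and Epcam and Krt18 did not pass. Of 13 measured endothelial, blood and microglial genes, 8 rose and 2 fell (median 1.36), with 4 rises without TKO line 1 and 5 without WT line 3. The sialomucin Emcn measured 1520 and 1639 in TKO and 266, 186 and 149 in WT (3.01, SE 0.22) and the receptor Flt1 795 and 797 in TKO and 113, 154 and 165 in WT (2.48, SE 0.21). The summed markers of these lineages were low in both genotypes, at 117 and 104 in TKO and 107, 57.4 and 85.5 in WT.

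Of 27 measured contractile genes 10 rose and 11 fell, or 10 and 9 with chromosomes centred or equal library totals. Without TKO line 1, 3 rose. The smooth muscle genes Tagln and Cnn1 measured 1770 and 1703, and 108 and 94.7, normalised counts in TKO, against 7403, 8506 and 6119, and 845, 914 and 688, in WT. They fell (log2 -2.07, SE 0.11 and -2.99, SE 0.19), as did Lmod1 (-2.02, SE 0.22). Desmin, Des, measured 538 and 141 in TKO and 18.6, 10.8 and 27.2 in WT (3.88, SE 0.59). The rises of the striated genes Myog, Tnnt2 and Tnni1, of 3.42 (SE 0.89), 3.22 (SE 0.64) and 3.33 (SE 0.70), were lost without TKO line 1, at 2.46, 2.07 and 2.18 (limma adjusted p = 0.166, 0.0624 and 0.0799). Muscle markers summed to 11643 and 6960 in TKO and 82218, 104411 and 77790 in WT, nearly all of it Acta2.

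Of 30 mesenchymal genes 12 rose and 10 fell, with 5 falls without TKO line 2 and 6 without WT line 2. Collagen Col1a2 measured 24223 and 20570 normalised counts in TKO and 7409, 8580 and 6585 in WT (1.58, SE 0.10), while the matrix genes Thbs1, Thbs2 and Lox fell by 1.18 (SE 0.09), 1.86 (SE 0.19) and 1.64 (SE 0.18). The fibroblast and mesenchyme markers gave the higher TKO sums stated above. Of 36 measured genes of extracellular matrix and basement membrane, 14 rose and 13 fell. Lama4 rose by 1.55 (SE 0.19), the collagen Col22a1 measured 867 and 1518 in TKO against 6519, 6403 and 6811 in WT (-2.52, SE 0.17), and Col4a6 fell by 1.95 (SE 0.08) while Col4a1 rose by 0.55 (SE 0.08). Of 39 measured integrins and matrix proteases, 18 rose and 8 fell. Itga4 measured 467 and 427 in TKO and 96.1, 98.5 and 75.8 in WT (2.31, SE 0.24), the aggrecanase Adamts5 rose by 2.31 (SE 0.18), and the laminin receptor subunit Itga6 fell by 1.12 (SE 0.09). Itgb3, on chromosome 11, rose by 2.45, or 1.92 with chromosomes centred.

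Of 30 cadherins and catenins, 13 rose and 9 fell. Cdh4 measured 531 and 592 normalised counts in TKO against 3376, 3165 and 3676 in WT, and Cdh22 measured 273 and 407 in TKO against 2549, 2879 and 3412 in WT (-2.60, SE 0.10 and -3.13, SE 0.17). Cdh3, of placenta and epithelia, and Cdh8 rose by 1.87 (SE 0.28) and 1.69 (SE 0.27). Of 46 axon guidance genes, 14 rose and 9 fell, among them the repellent Sema3a with 4022 and 2681 in TKO and 1354, 1177 and 1197 in WT (1.40, SE 0.15) and the ephrin Efnb3, on chromosome 11, which fell by 1.17, or 1.70 with chromosomes centred. Plxnd1, a semaphorin receptor on distal 6, rose by 1.71, or 1.19 with chromosomes centred. Of 45 ion channels and receptors, 13 fell and 7 rose, or 4 rising without TKO line 2 or WT line 1. The NMDA receptor subunit Grin2b, on distal 6, measured 118 and 78.1 in TKO and 687, 523 and 655 in WT, and fell by 2.68, or 3.20 with chromosomes centred, while the GABA receptor subunit Gabra2 rose by 1.43 (SE 0.26). Of 31 measured clustered protocadherins 3 rose and 2 fell, and the counts were 1 and 4 without TKO line 2. In the fit of all 10 RNA-seq libraries, which covers only genes of both tables, 0 rose and 0 fell by limma (1 and 0 at an unadjusted p under 0.05), while in the NSC libraries 3 rose and 2 fell by edgeR and 3 and 2 by DESeq2.

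Of 30 mitosis genes, 28 fell and 1 rose (median -0.48), and with chromosomes centred 29 fell and 0 rose by limma (0 at an unadjusted p under 0.05; 1 by edgeR and 1 by DESeq2 without centring). The cytokinesis gene Ect2 measured 2241 and 2876 normalised counts in TKO, against 5505, 5435 and 5593 in WT (-1.12, SE 0.10), and the kinetochore protein Cenpf 4094 and 4427 in TKO and 8913, 7590 and 8265 in WT (-0.95, SE 0.08). The kinase Aurkb, on chromosome 11, measured 4473 and 5134 in TKO and 4352, 4606 and 4496 in WT and did not pass, at 0.10 on the log2 scale, but stood at -0.44 with chromosomes centred. Of 32 DNA replication genes, 17 fell and 1 rose (median -0.22), or 11 falling without TKO line 2. With chromosomes centred 15 fell and 0 rose by limma (1 at an unadjusted p under 0.05; 2 by edgeR and 2 by DESeq2 without centring). The sliding clamp Pcna fell by 0.51 (SE 0.07) and the ribonucleotide reductase Rrm1 by 0.44 (SE 0.06). Among 21 cyclins and inhibitors, of which 4 rose and 8 fell, the kinase Cdk6 measured 2064 and 1601 in TKO and 5106, 4901 and 5048 in WT (-1.46, SE 0.10) and the tumour suppressor Cdkn2a 4448 and 3917 in TKO and 2460, 1903 and 1763 in WT (1.05, SE 0.13). Ccnd3 rose by 0.67 (SE 0.07), Cdkn2c fell by 1.98 (SE 0.13) and Myc rose by 1.31 (SE 0.09). The p53 target Cdkn1a measured 31453 and 26760 in TKO and 24476, 27195 and 23279 in WT and did not pass (limma adjusted p = 0.0547), but did with chromosomes centred (limma adjusted p = 0.0317) and in 5 other alternatives. Of 25 p53 targets, 12 rose and 3 fell, or 1 falling without TKO line 2 (median 0.22).

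Of 50 ribosomal protein genes 19 rose at a median of 0.15, or 21 with chromosomes centred and 30 with equal library totals, and 0 fell by limma, at an unadjusted p under 0.05, by edgeR or by DESeq2. The rises numbered 7 without TKO line 1, 11 without TKO line 2, 31 without WT line 1 and 12 without WT line 3. Rps20 measured 32367 and 31365 normalised counts in TKO and 26179, 23807 and 24955 in WT (0.35, SE 0.06). Of 38 respiratory chain genes 7 rose and 2 fell, or 4 rising without either TKO line, WT line 1 or WT line 3 or with chromosomes centred, and the falls numbered 0 by limma without either TKO line or WT line 1 (3, 1 and 2 at an unadjusted p under 0.05). With all libraries 2 fell by edgeR and 3 by DESeq2. Of 31 glycolysis and tricarboxylic acid cycle genes, of which 8 lie on chromosome 11 or distal 6, 4 rose and 12 fell. With chromosomes centred 1 rose and 14 fell. The median of -0.04 became -0.14 with chromosomes centred and 0.01 with equal library totals. Phosphofructokinase Pfkp measured 1260 and 939 in TKO and 4161, 4695 and 4553 in WT (-2.04, SE 0.12), and the neuronal glucose transporter Slc2a3, on distal 6, 5647 and 4851 in TKO and 15003, 17846 and 15425 in WT (-1.62, SE 0.09, and -2.14 with chromosomes centred). Pkm and Ldha did not pass. Of 33 cholesterol and fatty acid genes 13 fell and 5 rose, or 2 rising without TKO line 2 and 3 without WT line 3 or with chromosomes centred. Hmgcs1 and Sqle, early enzymes of sterol synthesis, fell by 0.72 (SE 0.06) and 0.81 (SE 0.07).

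Of 27 genes of the integrated stress response and serine synthesis, 9 rose and 5 fell, or 3 falling without TKO line 1. The pseudokinase Trib3 measured 390 and 316 normalised counts in TKO and 82.7, 121 and 55.4 in WT (2.08, SE 0.33), and asparagine synthetase Asns 5091 and 3850 in TKO and 2417, 2325 and 2360 in WT (0.90, SE 0.11). Psat1, of serine synthesis, fell by 0.79 (SE 0.06), and Atf4 measured 13025 and 11856 in TKO and 13075, 11437 and 11873 in WT and did not pass. Of 24 immediate early genes 8 rose and 9 fell, or 4 rising without TKO line 1. Of 21 antigen presentation genes 6 rose and 5 fell. The class I genes H2-K1, with 1610 and 1928 in TKO and 4229, 3713 and 4291 in WT, and H2-D1 fell by 1.21 (SE 0.10) and 0.96 (SE 0.13), whereas the immunoproteasome genes Psmb8 and Psmb10 rose by 2.06 (SE 0.31) and 0.88 (SE 0.12). H2 class I genes are near-identical copies whose reads may not be told apart. Of 30 interferon genes 5 rose and 1 fell, or 3 rising without either TKO line, and Isg15 did not pass. Of 30 solute carriers 7 rose and 9 fell, or 4 rising without TKO line 1 or WT line 1. Of 21 genes listed for the 2-cell-like state only 2 were measured. The 1 that fell was Prdm16 (log2 -2.83), so the list does not describe this state.

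**Figure D3:**
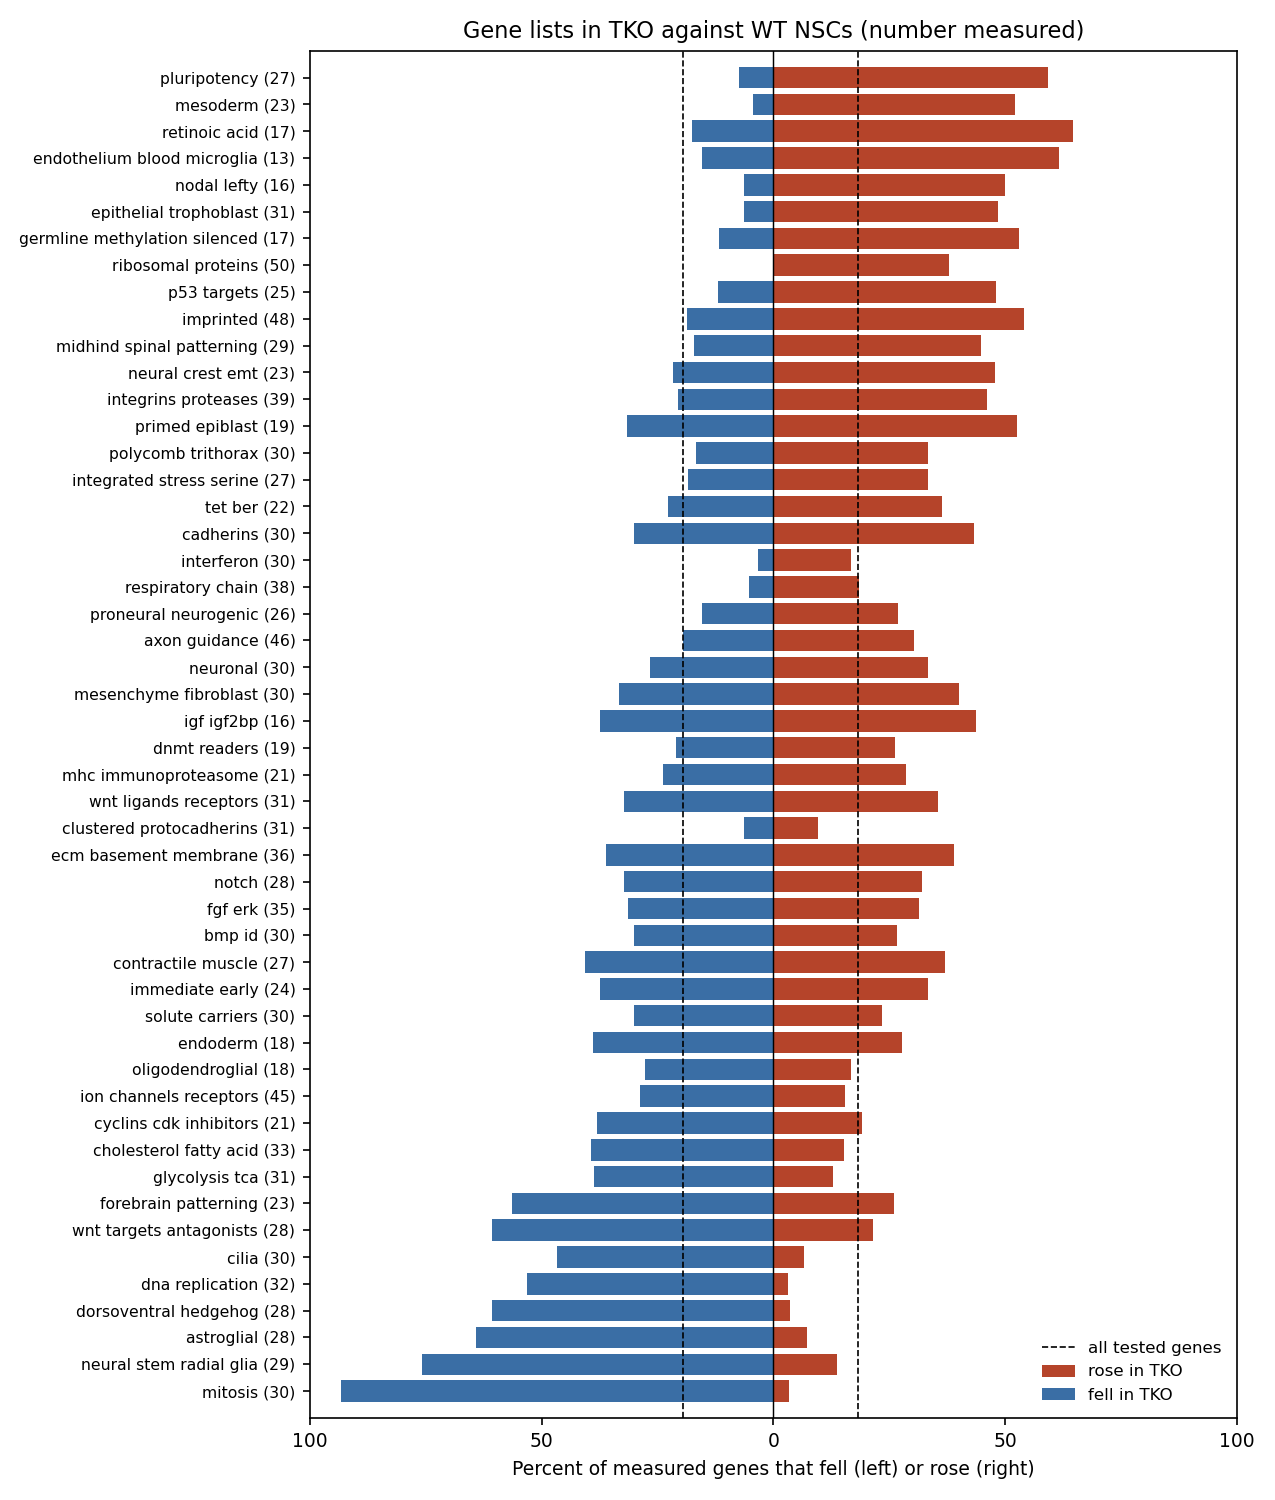
Percent of the measured genes of each list that rose (bars to the right) or fell (bars to the left) in TKO against WT NSCs, for each list that has 10 or more measured members; the dashed lines mark the 18.2% higher and 19.5% lower of all tested genes. Mitosis, neural stem and astroglial genes extend furthest to the left, and retinoic acid, endothelial and pluripotency genes furthest to the right.

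Some genes of chromosome 11 and distal 6 moved beyond, or against, the shift of their stretch. Rps4l, a ribosomal protein S4 copy on distal 6, measured 9062 and 10125 normalised counts in TKO, against 762, 842 and 818 in WT, and stood at 3.57 (SE 0.09), or 3.04 with chromosomes centred. Reads of this copy and of related S4 genes may not be told apart. B4galnt3, a glycosyltransferase gene on distal 6, measured 319 and 141 in TKO and 16.5, 19.5 and 13.6 in WT (3.62, and 3.09 centred), and Meioc, a meiosis gene on chromosome 11, 397 and 365 in TKO and 28.9, 13 and 15.5 in WT (4.32, and 3.79 centred). These rises stayed large after centring. Against the shift, Lrtm2, a leucine-rich repeat gene on distal 6, measured 18.4 and 39 in TKO and 484, 509 and 382 in WT (-4.03, and -4.56 centred), the potassium channel partner Kcnip1 on chromosome 11 66.1 and 68.3 in TKO and 663, 751 and 344 in WT (-3.03, and -3.57 centred), and Lrrc23, of the ciliary axoneme on distal 6, fell by 2.53, or 3.05 centred. The imprinted gene Grb10, on chromosome 11, separated the TKO lines, with 5695 and 504 in TKO against 19451, 21468 and 18146 in WT (-3.53, SE 0.68). It stood at -1.79 without TKO line 2. Both lines were below WT, but its call was lost with robust variance (limma adjusted p = 0.132) and without the trend (0.0879). With chromosomes centred, 205 genes of chromosome 11 were higher and 261 lower, and on distal 6, 59 and 79.

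Genes that only the NSC table lists were lower in level and fell more often than they rose. Of 2375 tested, 215 (9.05%) were higher and 374 (15.7%) lower, and their median level was 26.2 normalised counts, against 1138 for the genes of both tables, of which 19.7% were higher and 20.1% lower. The level filter averages 3 WT and 2 TKO libraries, so a low gene read in WT alone passes it more easily. The part of this in the shares was not tested. Vxn, which promotes neurogenesis in the frog, had no read in TKO and 172, 110 and 182 in WT, and Lrtm1 none in TKO and 132, 182 and 111 in WT. They were at least 54.4-fold and 49.8-fold lower in TKO, against a floor of 3 read pairs over the TKO libraries, and Sdsl, a serine dehydratase relative, was at least 20-fold lower. Serpinb2, a plasminogen activator inhibitor, measured 390 and 141 in TKO and 10.3, 0 and 7.77 in WT (5.67, SE 0.99). Gzmd, a granzyme of pregnancy-associated killer cells, had no read in WT and 95.5 and 46.8 in TKO, at least 34.6-fold higher, and granzyme genes lie in a cluster of similar copies whose reads may not be told apart. The protocadherin Pcdh12, the interferon-induced GTPase Gbp11 and Otor, of the inner ear, were read in TKO and nearly unread in WT, with 2, 2 and 4 reads over the WT libraries.

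The TKO effect in NSCs was set against that in ESCs by an interaction term over 15369 genes. It was above 0 for 1669 genes (10.9%) and below 0 for 1508 (9.81%), and of the 6109 shared genes called in NSCs, 2443 (40%) showed it. Without TKO NSC line 1 it was called for 2092 genes in all, against 3177. ESC and NSC libraries share line codes, and with the line code as a block, a fit chosen after seeing the data, it was called for 2938. With the replicate number as a block within each cell type it was called for 1851. With chromosomes centred, over genes with a position, it was called for 3012. On chromosome 8 the median stood at -0.39 and -0.41 in TKO ESCs, but at -0.01 and -0.04 in TKO NSCs. The part of such chromosome shifts in single interaction calls was not tested. For 308 genes the effects were called in both cell types with opposite signs. The authors normalised each table on its own, so the effects are compared and not the levels. H19 measured 34432 and 14479 normalised counts in TKO NSCs and 546, 580 and 313 in WT NSCs, but 1343 and 1105 in TKO ESCs and 1302, 1355 and 1206 in WT ESCs. Its effect was 5.67 larger in NSCs on the log2 scale (SE 0.41, limma adjusted p = 8.24e-07). Dppa2, with 5058 and 4078 in TKO ESCs and 3974, 3870 and 3812 in WT ESCs, was high in both ESC genotypes and read in NSCs in TKO alone (5.24, SE 0.41). Cyp26a1 measured 48.2 and 20.2 in TKO ESCs and 166, 223 and 207 in WT ESCs, lower in TKO there and higher in NSCs (5.86, SE 0.57). Megf11, an EGF-repeat membrane protein, measured 352 and 483 in TKO NSCs and 4901, 4548 and 5601 in WT NSCs, but 152 and 139 in TKO ESCs and 21, 17.1 and 48.3 in WT ESCs, so that its effect was -6.04 (SE 0.47). Ecrg4, a secreted growth suppressor of choroid plexus, and Pnpla3 likewise had interactions below 0, at -6.39 (SE 1.48) and -5.81 (SE 0.56). Slc15a2, a peptide transporter, fell in both cell types, with 120 and 116 in TKO NSCs, 276, 200 and 279 in WT NSCs, 8.38 and 0 in TKO ESCs and 365, 348 and 329 in WT ESCs, and its interaction of 5.76 marks a smaller fall in NSCs, where its call was lost in a fit of all 10 libraries (limma adjusted p = 0.232).

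**Figure D4:**
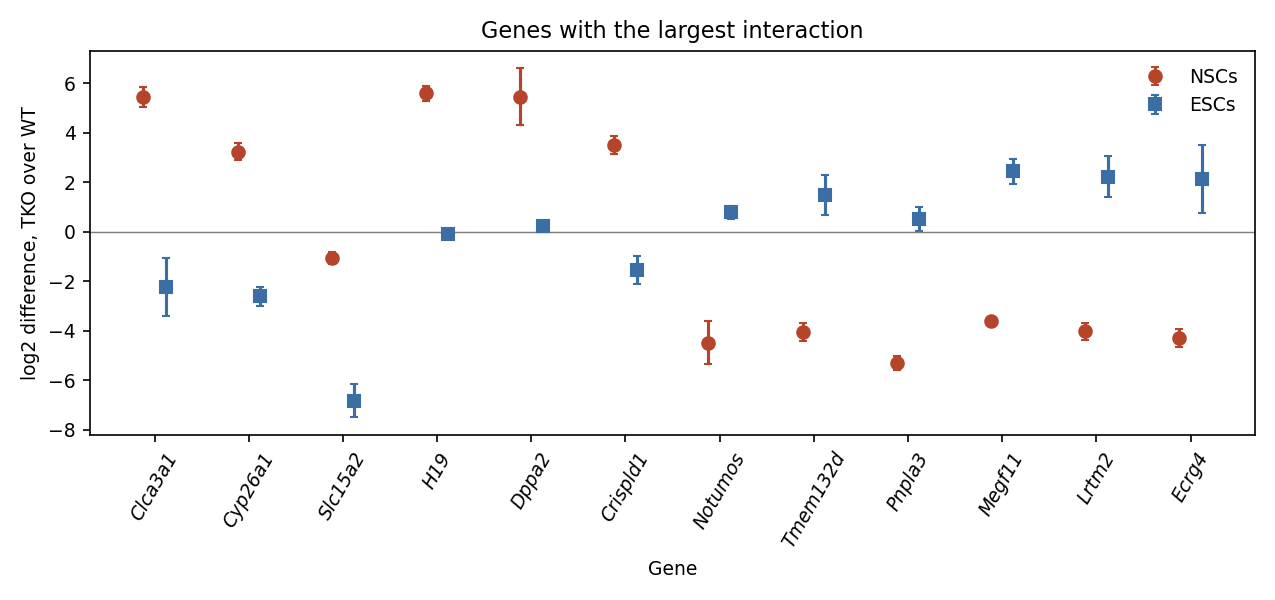
Log2 difference (TKO over WT) of the 12 genes with the largest interaction, 6 in each direction, in NSCs and in ESCs; bars are standard errors of limma's fit. H19 and Dppa2 stand above 5 in NSCs and near 0 in ESCs, and Megf11 and Lrtm2 are below -3 in NSCs and above 2 in ESCs.

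Promoter contacts were read from promoter capture Hi-C, which sequences ligated chromatin fragments that include a captured promoter, in 1 TKO and 1 WT NSC library, so that no test was made. The lists hold 58145 loops in TKO and 59754 in WT. At promoters of higher genes there were 5.83 loops per gene in TKO and 5.31 in WT, and 52.4% of their loops stood in the TKO list (exact 95% interval 51.8 to 53, for counting error only). At promoters of lower genes there were 4.23 loops per gene in TKO and 5.11 in WT, and 45.3% stood in the TKO list (44.6 to 45.9). For genes not called it was 47.1% and for all 47.9%. With each pair of fragments counted once, the shares were 52.9% for higher genes, 45.4% for lower genes, 47.5% for genes not called and 48.3% for all. The share for higher genes depended on chromosome 11 and distal 6. There, 58.7% of the loops of higher genes, 59.9% of those of lower genes and 57.1% of those of genes not called stood in the TKO list. Elsewhere the share was 46.9% for higher genes, 44.7% for lower genes and 46.4% for genes not called. Among genes changed at least 2-fold outside these stretches it was 51.6% for higher genes (49.8 to 53.4) and 43.7% for lower genes (42.5 to 45). Olig2 had 3 loops in TKO and 11 in WT, Mlc1 3 in TKO and 10 in WT, and Pax6 2 in TKO and 5 in WT. Ngfr, on chromosome 11, had 8 loops in TKO and 0 in WT and Meox2 3 in TKO and 0 in WT, while Ptgds, which fell, had 10 in TKO and 7 in WT and Wnt8b 4 in TKO and 2 in WT. Loop counts thus followed expression in some named genes and went against it in others.

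**Figure D5:**
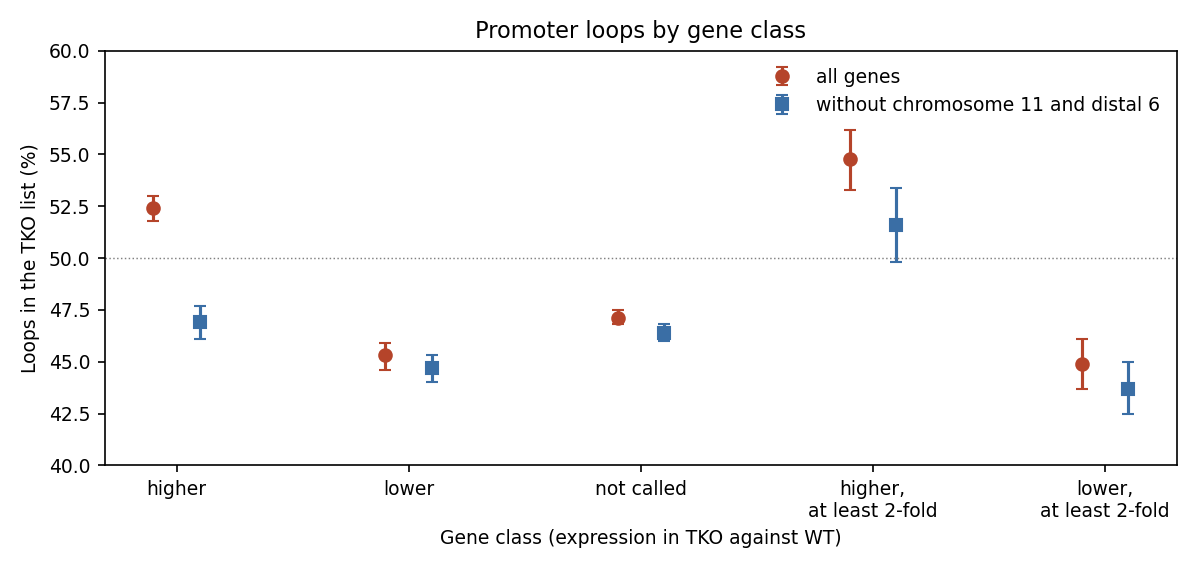
Share of the promoter loops of each gene class that stood in the TKO list, over all genes and without those of chromosome 11 and distal 6. Error bars are exact 95% intervals of counting error in 1 library per genotype, which treat repeated counts of a loop as independent. Higher genes stand at 52.4% over all genes and at 46.9% without these stretches, and lower genes at 45.3% and 44.7%.

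CpG content of promoters was described for 12367 of the 17744 tested genes (69.7%). The median over the 300 bases was 20 CpG for higher genes, 21 for lower genes and 19 for genes not called. Genes with large changes had fewer, with a median of 12 for those at least 2-fold higher and 16 for those at least 2-fold lower, and 19.9% and 14.9% of them had under 5, against 9.22% of all. Of 1140 genes with under 5 CpG, 12.6% were at least 2-fold higher and 11.1% at least 2-fold lower. Of 6384 genes with at least 20, these shares were 3.79% and 5.47%. The CpG-poor genes were read at a lower median level, 77.1 normalised counts against 1770 for the CpG-rich genes, and the part of level in these shares was not tested. The promoters of Olig2, Ngfr and Mitf held 25, 23 and 22 CpG, and those of Clca3a1, Mlc1 and Strc 3, 3 and 5.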

How the data were processed

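The deposited NSC table holds a signal per gene that is never negative, namely reads that the authors divided by a DESeq2 size factor per library, as the table's name states. The submitters' processing notes name Trim Galore 0.6.5, STAR 2.7.3a, mm10, featureCounts and DESeq2 1.40.2, with no further detail. Within a library all values were whole multiples of 1 step, so that 100% came out as whole reads (tolerance 1e-06), and the totals lay between 42821602 and 49060991 reads. Between 75.2% and 77.4% of counts up to 20 were even, as when both mates are counted, so floors and intervals use read pairs and cover counting error only. The number of columns left unused was 0. The ESC table was normalised by the authors on its own. The deposited loop lists give the authors' score per loop, which served only as a filter. Neither the loop caller nor the strandedness of counting is stated in the labels, and overlapping or near-identical genes may share reads. The other samples of the series were not analysed here.

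TKO was compared with WT by limma 3.58.1 with a trend (R 4.3.3), on log2(value + 1), which understates the change of low genes. Tests were two-sided and covered genes whose mean reached 10, and p-values were adjusted over all of these by Benjamini-Hochberg. Gene positions come from RefSeq (GRCm38.p6), which matched 16352 genes by symbol and 53 by synonym and left 1366 unmatched. Distal 6 begins at the step of a 2-level fit along chromosome 6 with at least 100 genes on either side. Alternatives changed the pseudocount, filter, scaling, variance model, chromosome centring, replicate block and libraries used, and edgeR 4.0.16 and DESeq2 1.42.0 were run on the recovered reads. The fits were tested on simulated data with known changes. The p-values measure the spread between these samples. Same-numbered TKO and WT lines did not deviate together (r = 0.007 and -0.021), so the numbers were not taken as pairs. ESC and NSC libraries share line codes and are paired by them, though the correlation of same-code deviations was only -0.031, 0.004 and 0.023 for the WT pairs. For the 2 TKO pairs it was 0.031, which is 1 value, because the deviations of 2 lines from their mean mirror each other.

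Members and lists were chosen with earlier results of these data known. A gene qualified for naming when it was called with and without chromosome centring in 1 direction and its genotypes did not overlap, with symbols of predicted or clone type left out. Of these, the 12 largest rises and falls with a mean of at least 500 in the higher group were named, the 6 and 6 largest listed only for NSCs (at least 50), the 4 and 4 largest of chromosome 11 and of distal 6 after centring (at least 100), up to 4 rises and 4 falls per list (at least 50), and the 6 and 6 largest differences in level. The Tet genes, 15 anchor genes, list members that did not pass, and the 6 and 6 largest called interactions (mean of at least 200 in a group) were added. The text uses a part of these, and some genes are not reported here.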

Additional observations from a re-analysis of the deposited data

Results flagged for a closer look

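The effect of TET loss differed between NSCs and ESCs for 3177 genes by limma's test of the interaction (adjusted p under 0.05), for 2938 with the line code shared by ESC and NSC libraries as a block and for 1851 with the replicate number as a block within cell type. With chromosomes centred the interaction was called for 3012 genes. The 6 largest above 0 on the log2 scale were those of Clca3a1 (7.68), Cyp26a1 (5.86), Slc15a2 (5.76), H19 (5.67), Dppa2 (5.24) and Crispld1 (5.07). The 6 largest below 0 were those of Ecrg4 (-6.39), Lrtm2 (-6.26), Megf11 (-6.04), Pnpla3 (-5.81), Tmem132d (-5.53) and Notumos (-5.27). All 12 kept their call and sign with either block and when each of the 10 libraries was left out in turn. Clca3a1 had 44 and 0 normalised counts in TKO ESCs and 22.9, 34.2 and 36.2 in WT ESCs, and its interaction stood at 10.43 without TKO ESC line 1 and at 4.93 without TKO ESC line 2. Crispld1, a secreted cysteine-rich protein, measured 390 and 293 in TKO NSCs and 24.8, 39 and 24.3 in WT NSCs, but 14.7 and 26.9 in TKO ESCs and 74.4, 86.5 and 34.2 in WT ESCs. Tmem132d measured 20.2 and 13.7 in TKO NSCs and 300, 392 and 210 in WT NSCs, but 54.5 and 34.6 in TKO ESCs and 26.7, 28.1 and 4.03 in WT ESCs. Notumos measured 0 and 3.9 in TKO NSCs and 30, 81.2 and 47.6 in WT NSCs, and its reads may not be told apart from those of Notum.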

How the results depend on the processing

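The 6698 calls (3236 higher, 3462 lower) became 4400, 2120 and 2280 with limma without the trend, and stayed within 1.5 times the stated counts under the other planned settings, with 4787 to 5888 calls when a line was left out (2160 to 2914 higher, 2627 to 2974 lower). Leave-one-out counts of changes of at least 2-fold ran from 686 to 1028 higher and 1055 to 1212 lower. A fit of all 10 libraries, which covers only genes of both tables, gave 777 lower by at least 2-fold. In the main fit 884 genes of both tables were lower by that much. With equal library totals 3656 were higher and 3086 lower, 54.2% higher among calls against 48.3%, and the median of all genes moved by 0.04. Centred on chromosome medians, 6014 genes were called, and 4289 to 5190 with a line left out. The replicate block gave 6275 calls, but the line numbers were not taken as pairs. The interaction had 3177 calls, 1851 with the replicate block within cell type, 2938 with a block for the line code shared by ESC and NSC libraries, chosen after seeing the data, and 2092 to 3308 with a library left out. Of 215 named genes that were called, a count without Gata6 and Prdm16, 208 kept call and direction in each of the 20 alternatives that covered them. Gata6 lost its call with limma without the trend (adjusted p = 0.0579). Some alternatives leave genes out, such as the fit of all 10 libraries, the higher level filter and the fit without chromosome 11 and distal 6. Aurkb, not called at 0.10, stood at -0.44 and was called lower with either chromosome centring. Bmp4, Cdkn1a, Foxa2, Hes5, Klf4, Pdgfra, Ptch1 and Uhrf1, 8 of the 33 named genes that were not called, were called in at least 1 alternative. The fit of all 10 libraries covers only genes of both tables. In it 11 astroglial, 11 dorsoventral, 4 forebrain, 3 neuronal, 2 oligodendroglial, 2 proneural, 3 neural crest, 2 methylation and 5 channel genes and 1 gene each of retinoic acid and the respiratory chain fell. In it 7 retinoic acid, 6 mesoderm, 5 cadherin, 8 midbrain to spinal, 9 axon guidance, 4 BMP, 4 proneural, 3 forebrain, 3 Wnt target, 3 methylation, 3 channel, 3 antigen presentation, 2 neural stem and 2 replication genes rose, and 0 clustered protocadherins changed, as given above. The chromosome 11 median of 0.53 became 0.57 with equal totals, and that of distal 6 0.57 with equal totals, 0.52 with a pseudocount of 5 and 0.51 with a mean of at least 50 (leave-one-out 0.51 to 0.55 for distal 6). For loops with a score of at least 10, shares in the TKO list were 54.7% for higher, 42.9% for lower and 45.5% for genes not called, and 59.5% and 42% for those at least 2-fold higher and lower. The setting without chromosome 11 and distal 6, chosen after seeing the data, gave 46.9%, 46.4% for genes not called and 51.6% at least 2-fold higher. Median CpG was 12 and 16 for genes changed at least 2-fold. Causes of these shifts were not tested. There were 2 TKO lines, and 1 loop library per genotype, which limits precision.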
